A study of Mus musculus with 6 samples.

Results

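Striated muscle sarcomere genes are described here: 44 genes taken by symbol, out of 24062 in the table of read counts, and all 44 were found in it. They encode the contractile filaments of skeletal and heart muscle and the proteins that anchor, trigger and fuel them. The list was put together with the high level of skeletal muscle genes in ABT263 replicate 3 already known. The values of that library against the other 5 are therefore given as a description, with no test. The RNA came from aortic arch plaque of C57BL/6 mice that lacked the low-density lipoprotein receptor in both groups, the deletion that makes them prone to atherosclerosis. All mice spent 12 weeks on high-fat food (TD88137) and then 3 weeks on low-fat food until tissue was taken. In 3 libraries the mice had received vehicle. In the other 3 they had received ABT263 (navitoclax), an inhibitor of BCL-2, BCL-xL and BCL-w used to remove senescent cells, by injection into the peritoneum at 100 mg/kg daily in week 1 on the low-fat food. The labels give neither the age and sex of the mice nor the composition of the vehicle, and do not state whether each library came from 1 mouse.

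In striated muscle, myosin thick filaments pull on actin thin filaments inside repeating units called sarcomeres. Calcium released from the sarcoplasmic reticulum binds troponin on the thin filament and lets the motor engage. Fast skeletal fibres, slow skeletal fibres and heart muscle use different members of the same gene families, and slow fibres share several of them with the ventricle. Smooth muscle of the vessel wall has filaments but no sarcomeres, and it uses its own myosin (Myh11) and actin (Acta2).

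Levels are given in CPM, read counts scaled to library size with the TMM method. The library totals ran from 62930547 to 110452098 counts. A count of 0 allows up to 3 counts, which is 0.0278 to 0.048 CPM depending on the library. This limit covers counting error only. Markers of plaque were present in all 6 libraries: 13 macrophage genes summed to between 8823 and 28110 CPM, and 20 contractile smooth muscle genes to between 3275 and 20435 CPM. ABT263 replicates 2 and 3 stood apart. The smooth muscle genes summed to 20435 and 12579 CPM there, against 3275 to 4762 CPM in the other 4 libraries. ABT263 replicate 2 also stood apart in fat, mesothelial and adventitial genes. There, 10 brown adipocyte genes summed to 661 CPM (7.46 to 12.7 CPM in the others) and 8 mesothelial genes to 640.3 CPM (10.9 to 35.1 CPM). The sum over 10 adventitial fibroblast genes was 5941 CPM (1015 to 1768 CPM). The sum over 12 white adipocyte genes was 9093 CPM (1904 to 7269 CPM), and 9 of these 12 stood at least 4-fold above every other library, Adipoq (adiponectin) at 355 CPM against at most 0.510 CPM. In bulk RNA, more cells of a type and more RNA per cell cannot be told apart.

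The 44 genes together stayed a trace of each library, at 49.95, 84.02 and 48.99 CPM with vehicle and 49.1, 184 and 158 CPM with ABT263. No member exceeded 41.3 CPM in any library. The highest value of a member lay in ABT263 replicate 3 for 18 genes, in ABT263 replicate 2 for 13, in vehicle replicate 2 for 8, in ABT263 replicate 1 for 3 and in vehicle replicate 1 for 2. Among the 15222 genes kept by a filter on low counts, 11.1% were highest in ABT263 replicate 3, 24.8% in ABT263 replicate 2 and 4568 genes in vehicle replicate 2. Of the 44, 37 passed that filter. The high level in ABT263 replicate 3 thus held for some members only. Members were sorted into 3 sets by library, drawn after their values were seen. In 13 genes ABT263 replicate 3 stood at least 2-fold above every other library. In 7 more, ABT263 replicates 2 and 3 both stood at least 2-fold above the other 4 libraries, and in 5 more ABT263 replicate 2 alone stood at least 2-fold above every other. The remaining 19 showed none of these patterns.

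**Figure D1:**
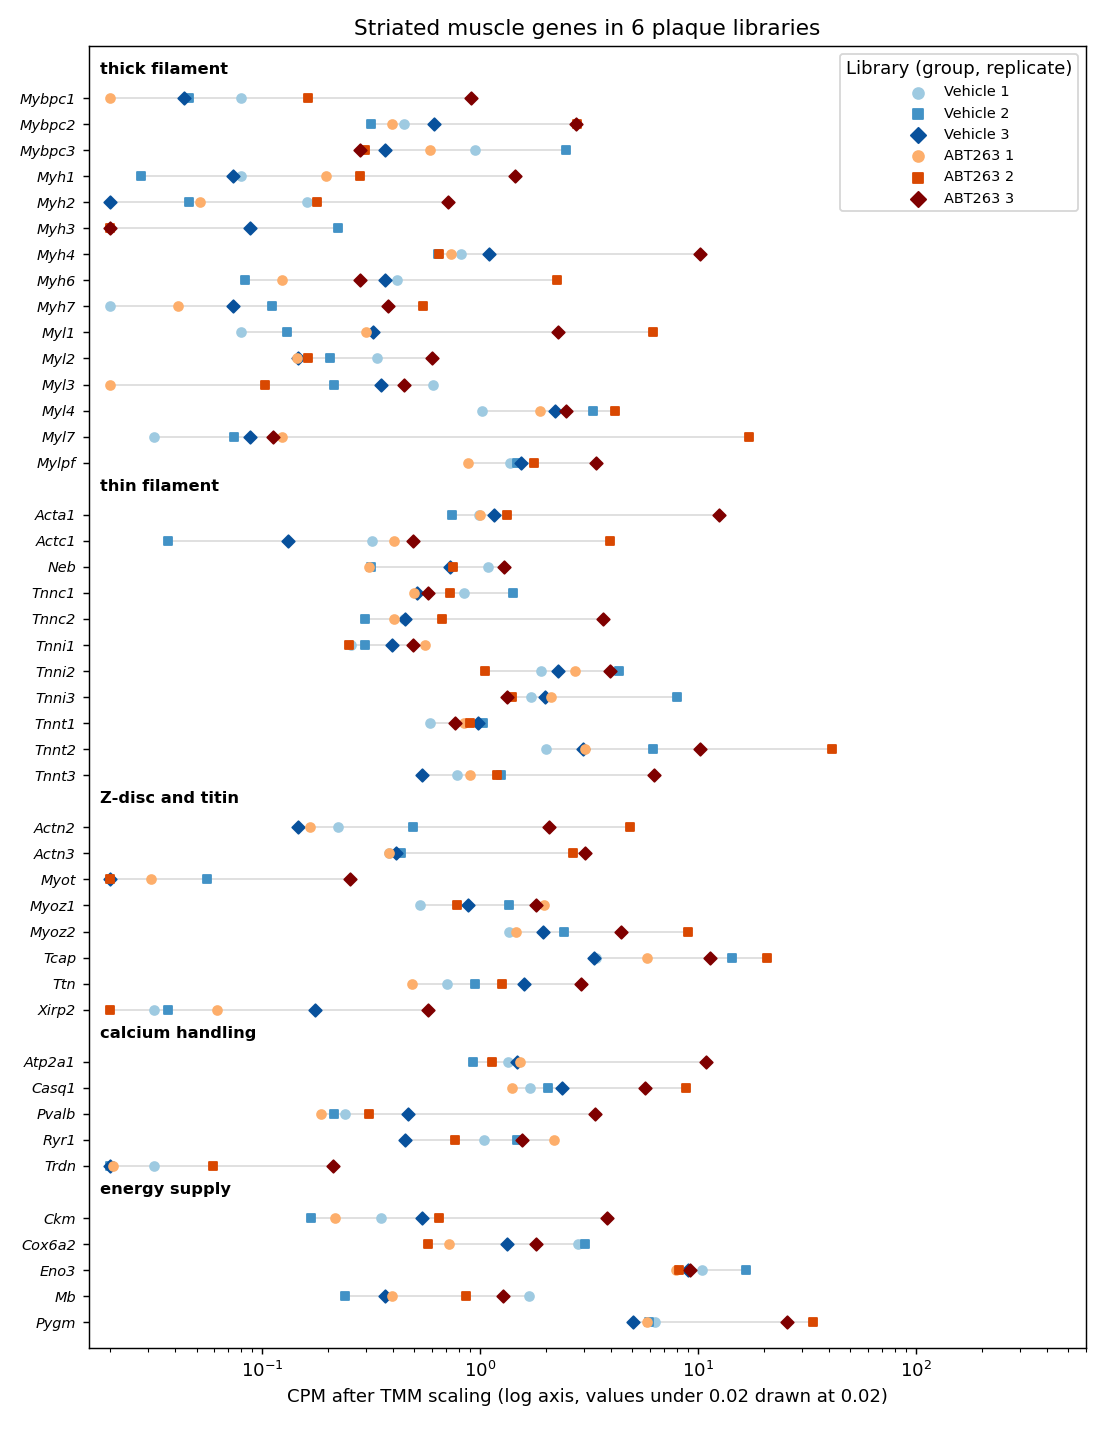
Level of each of the 44 genes in the 6 libraries, in CPM after TMM scaling on a log axis, grouped by role; each point is 1 library the line spans their range, and the lowest values and zeros are drawn at the left edge. The dark red diamonds of ABT263 replicate 3 lie far to the right of the other points for Acta1, Myh4, Atp2a1 and Tnnt3, while the orange squares of ABT263 replicate 2 do so for Myl7, Actc1 and Tnnt2.

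The 13 genes high in ABT263 replicate 3 were mostly those of fast skeletal fibres and of parts that skeletal and heart muscle share. None was a cardiac isoform. Of 21 skeletal isoforms in the list 9 were among them, and of 10 shared genes 4. Their sum was 54.9 CPM in that library against 4.47 to 6.65 CPM in the 5 others. Among all genes kept, 0.276% stood at least 2-fold above every other library in ABT263 replicate 3. Of the members kept, 9 of 37 did so, and nothing is read from that count, since this library served to choose the list. At 4-fold, the counts were 11 of 44 members, 9 of the 37 kept and 0.0788% of all genes. Just above the limit was Xirp2 (a repeat protein that binds actin) at 3.28 times the next library, and just below it were Mylpf at 1.93, Ttn at 1.83 and Myl2 at 1.79.

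Among thin filament genes, Acta1, which encodes skeletal alpha-actin (chromosome 8, 123891769 to 123894751, mm10, minus strand), had the widest gap. It stood at 0.992, 0.742 and 1.16 CPM in the vehicle libraries and 1.002, 1.33 and 12.5 CPM in the ABT263 libraries, in replicate order 1 to 3. ABT263 replicate 3 was 9.41 times the next highest library, and the other 5 differed little. Tnnt3, fast skeletal troponin T, which ties troponin to tropomyosin, stood at 0.784, 1.25 and 0.541 CPM in the vehicle libraries and 0.899, 1.20 and 6.30 CPM in the ABT263 libraries. Tnnc2, the calcium sensor of fast fibres, stood at 0.448, 0.297 and 0.453 CPM in the vehicle libraries and 0.403, 0.666 and 3.66 CPM in the ABT263 libraries. In both genes the same single library was high and the 2 groups otherwise overlapped. Tnnc2 shares exon sequence with Ube2c on the other strand, so its counts are uncertain.

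Among thick filament genes, Myh4, the myosin heavy chain of the fastest (type IIb) fibres (chromosome 11, 67238029 to 67260446, plus strand), stood at 0.816, 0.640 and 1.10 CPM under vehicle against 0.734, 0.651 and 10.3 CPM under ABT263. Again ABT263 replicate 3 was the outlying library, at 9.36 times the next. Myh1, the heavy chain of type IIx fibres, stood at 0.0800, 0.0278 and 0.0731 CPM under vehicle against 0.196, 0.281 and 1.44 CPM under ABT263. Myh2, that of type IIa fibres, stood at 0.160, 0.0464 and 0 CPM under vehicle against 0.0517, 0.178 and 0.715 CPM under ABT263. These neighbouring genes share sequence. Of 50-base windows of the transcript, 18.9% in Myh4, 26.7% in Myh1 and 26.9% in Myh2 occur in another gene's transcripts, so reads may be lost or split among them. Mybpc1, a slow-fibre myosin-binding protein, was at most 0.91 CPM.

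The promoters of Acta1 and Myh4 are shown because both genes were among the highest of this set. The sequences are the 250 bases before the gene start in RefSeq (GRCm38.p6), at chr8:123894776-123895025, minus strand, for Acta1 and chr11:67237562-67237811, plus strand, for Myh4. They are written 5′ to 3′, and capitals mark matches on either strand to the E-box CAGCTG, to TATAAA, to the CArG box or to the MEF2 box, some of which can overlap.
Acta1: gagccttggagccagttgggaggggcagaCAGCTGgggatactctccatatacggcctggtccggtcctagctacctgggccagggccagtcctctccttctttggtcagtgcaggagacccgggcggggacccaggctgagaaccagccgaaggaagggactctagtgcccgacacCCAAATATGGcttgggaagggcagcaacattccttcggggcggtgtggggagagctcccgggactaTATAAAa
Myh4: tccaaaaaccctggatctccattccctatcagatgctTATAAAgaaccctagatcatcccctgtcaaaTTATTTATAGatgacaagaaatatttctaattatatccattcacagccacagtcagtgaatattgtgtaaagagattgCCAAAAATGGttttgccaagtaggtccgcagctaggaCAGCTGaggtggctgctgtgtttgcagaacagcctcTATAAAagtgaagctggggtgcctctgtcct
Distances run from the RefSeq start, which in both genes differs from the start of the GENCODE model placed above. They would differ from the GENCODE start. In Acta1 a TATAAA began 7 bases before the start, and in Myh4 31 bases before it. In Acta1 the CArG match began 73 bases before the start and the CAGCTG 221 bases before it. In Myh4 the CAGCTG began 67 bases before the start, the CArG match 104 and the MEF2 match 182. Of 10 promoters matched in this set, 5 held CAGCTG, 3 TATAAA, 2 a CArG match and 4 a MEF2 match. Over 32851 promoters in the table, 4271 held CAGCTG, and the shares with TATAAA, a CArG match and a MEF2 match were 12.4%, 1.47% and 2.92%. A match is a run of letters and not a shown binding site.

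Of 5 calcium handling genes 3 belonged to this set, and of 5 energy supply genes 1. Atp2a1, the calcium pump SERCA1 of fast fibres, stood at 1.34, 0.928 and 1.48 CPM under vehicle against 1.53, 1.14 and 10.9 CPM under ABT263, a value in ABT263 replicate 3 that was 7.12 times the next. Pvalb, parvalbumin, a soluble calcium buffer of fast fibres, stood at 0.240, 0.213 and 0.468 CPM in the vehicle libraries and 0.186, 0.311 and 3.37 CPM in the ABT263 libraries. Ckm, muscle creatine kinase, which regenerates ATP, stood at 0.352, 0.167 and 0.541 CPM in the vehicle libraries and 0.217, 0.651 and 3.81 CPM in the ABT263 libraries. All of these were high in 1 library only. Trdn (triadin), Myot (myotilin) and Xirp2 belonged to the set by ratio but never exceeded 0.575 CPM. Contractile smooth muscle genes were high in ABT263 replicate 3 as well, but higher still in ABT263 replicate 2, where the 13 genes summed to 6.65 CPM. Their part in the levels in ABT263 replicate 3 was not tested. Of the 13 genes, 7 had exons overlapping another gene, Atp2a1 (with Rabep2) and Ckm among them, as had 20 of all 44 members. Without strand, reads of such pairs cannot be told apart.

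**Figure D2:**
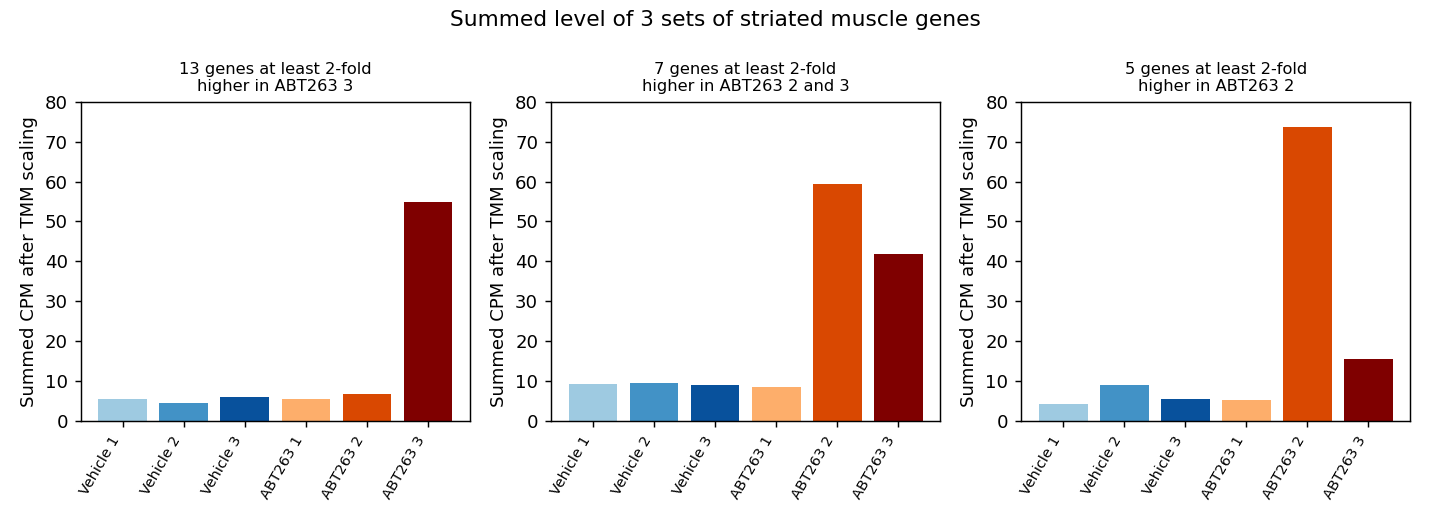
Summed CPM after TMM scaling, from 0, in each library (bars, 1 library each) for the 3 sets of genes drawn from their values. The first set reaches 54.9 CPM in ABT263 replicate 3, the second 59.4 and 41.8 CPM in ABT263 replicates 2 and 3, and the third 73.6 CPM in ABT263 replicate 2.

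Cardiac isoforms were high in another library, ABT263 replicate 2. Of 7 cardiac isoforms, 4 stood there at least 2-fold above every other library, and these were Myl7, Actc1, Myh6 and Tnnt2. Myl7, the regulatory light chain of the atrium (chromosome 11, 5896637 to 5898782, minus strand), stood at 0.0320, 0.0742 and 0.0878 CPM under vehicle against 0.124, 17.1 and 0.112 CPM under ABT263. Its value in ABT263 replicate 2, from 1155 reads, was 138 times the next highest. Actc1, cardiac alpha-actin (chromosome 2, 114047282 to 114053548, minus strand), stood at 0.320, 0.0371 and 0.132 CPM in the vehicle libraries and 0.403, 3.95 and 0.491 CPM in the ABT263 libraries. Myh6, the fast heavy chain of the heart, stood at 0.416, 0.0835 and 0.366 CPM under vehicle against 0.124, 2.26 and 0.280 CPM under ABT263. In these 3 genes ABT263 replicate 3, the library with high fast skeletal genes, lay within the vehicle range for Myh6 and was under 0.5 CPM for Actc1 and Myl7. Myh6 and Myh7 share 22.6% and 22.2% of their 50-base windows with each other.

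Tnnt2, cardiac troponin T, reached the highest level of any member and stood at 2.02, 6.23 and 2.97 CPM in the vehicle libraries and 3.03, 41.3 and 10.2 CPM in the ABT263 libraries. It was high in ABT263 replicate 2 and, less so, in ABT263 replicate 3, at 10.2 CPM against at most 6.23 CPM in the other 4. Myoz2 (calsarcin-1), a Z-disc protein of slow and heart muscle, stood at 1.36, 2.42 and 1.95 CPM in the vehicle libraries and 1.46, 8.97 and 4.45 CPM in the ABT263 libraries. Among all genes kept, 5.07% stood at least 2-fold above every other library in ABT263 replicate 2. Of the members kept, 6 of 37 did, Myl1 and Actn2 among them, which were high in ABT263 replicate 3 too. At 4-fold it was 2.17% of all genes and 3 of the 37. The cardiac pattern did not extend to every isoform. Tnni3, cardiac troponin I, stood at 1.71, 8.02 and 1.99 CPM in the vehicle libraries and 2.11, 1.41 and 1.33 CPM in the ABT263 libraries, and Mybpc3, the cardiac myosin-binding protein, at 0.944, 2.49 and 0.366 CPM under vehicle against 0.589, 0.296 and 0.280 CPM under ABT263, both highest in vehicle replicate 2. Tnni3 shares exon sequence on the same strand with Dnaaf3, so its counts are uncertain. Myl4, an atrial and fetal light chain, stood at 1.02, 3.28 and 2.21 CPM under vehicle against 1.88, 4.16 and 2.47 CPM under ABT263, with groups that overlapped.

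The promoters of Myl7 and Actc1 are shown beside those of the fast skeletal genes. They lie at chr11:5898783-5899032, minus strand, and at chr2:114052876-114053125, minus strand (RefSeq, GRCm38.p6, same window and marks). The Actc1 window lies inside the longer GENCODE model of that gene.
Myl7: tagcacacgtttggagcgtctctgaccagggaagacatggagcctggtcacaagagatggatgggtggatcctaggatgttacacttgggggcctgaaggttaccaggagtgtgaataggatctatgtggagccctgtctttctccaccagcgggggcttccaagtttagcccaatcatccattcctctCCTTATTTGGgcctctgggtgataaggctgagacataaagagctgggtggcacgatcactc
Actc1: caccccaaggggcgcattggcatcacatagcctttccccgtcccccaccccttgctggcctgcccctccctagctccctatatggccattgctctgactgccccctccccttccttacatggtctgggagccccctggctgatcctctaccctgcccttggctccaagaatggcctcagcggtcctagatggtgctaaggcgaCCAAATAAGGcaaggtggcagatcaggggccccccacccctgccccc
Each held a CArG match, which began 61 bases before the start in Myl7 and 47 in Actc1, and neither held CAGCTG in these letters. CArG matches occurred in 2 of 5 promoters of the set high in ABT263 replicate 2. In the set high in ABT263 replicate 3 they occurred in 2 of 10. CAGCTG occurred in 2 of the 5 and 5 of the 10, so its absence from Myl7 and Actc1 did not hold for their set.

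Markers of heart muscle outside the contractile list were measured beside these genes. Tbx5, a transcription factor of the atrium and left ventricle, stood at 0.0480, 0.0186 and 0.0878 CPM under vehicle against 0.103, 2.47 and 0.0561 CPM under ABT263. Nkx2-5, a transcription factor of heart muscle cells, stood at 0, 0.0186 and 0 CPM under vehicle against 0, 0.488 and 0 CPM under ABT263. Both were highest in ABT263 replicate 2. Nppa, the natriuretic peptide of the atrium, was at most 0.217 CPM, and Nppb at most 0.0928 CPM. Of 22 cardiac identity genes, 4 of them members, 12 were highest in ABT263 replicate 2, as were 24.8% of all genes kept. Another 2 had 0 counts throughout. The members Myl7, Myh6 and Tnnt2, described above, were among the 12. Of the list's other transcription factors, Tbx20 was highest in ABT263 replicate 3, at 61.3 CPM against 37.7 CPM in ABT263 replicate 2. Gata4 and Hand2 stood at 19.5 and 19.3 CPM in ABT263 replicate 2, against 16.8 and 17.4 CPM in ABT263 replicate 3. Gja5 was highest in ABT263 replicate 1. Brown and white fat, mesothelial, adventitial fibroblast and smooth muscle genes were high in ABT263 replicate 2, as given above. Their part in the cardiac values was not tested.

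**Figure D3:**
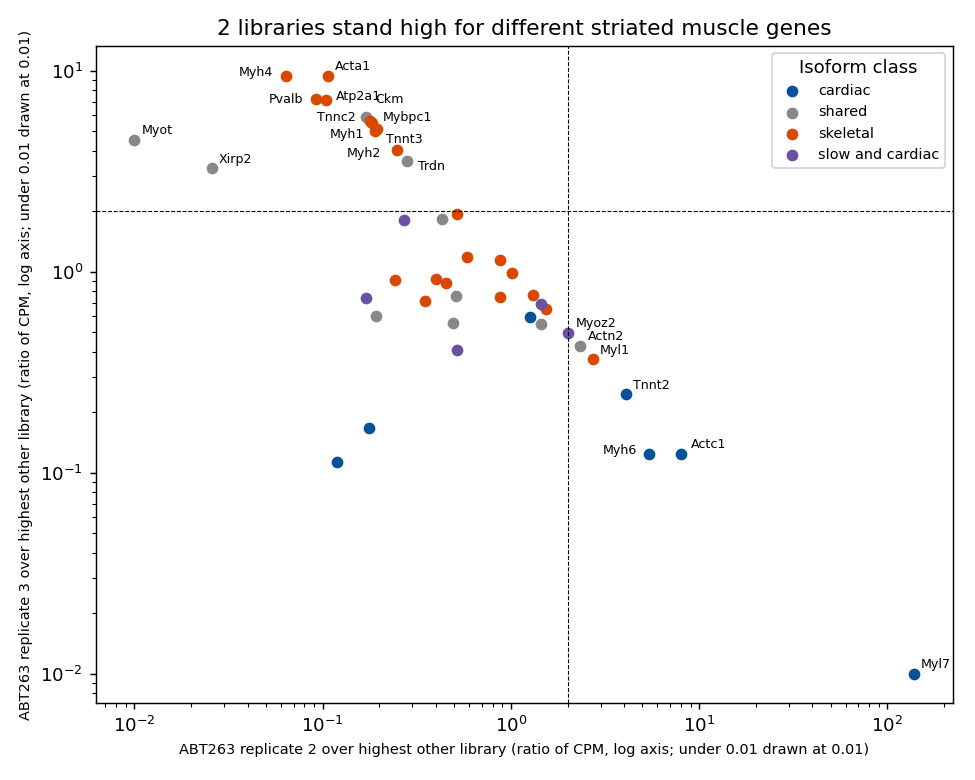
For each of 43 members (Myh3 is left out, its median being 0), the ratio of ABT263 replicate 2 to the highest other library (x) and of ABT263 replicate 3 to the highest other library (y), on log axes; colours give the isoform class and dashed lines a ratio of 2. All genes above the horizontal line are skeletal or shared, with Acta1 and Myh4 at the top, and Myl7 lies farthest to the right.

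A further 7 genes were high in ABT263 replicates 2 and 3 together: Casq1, Pygm, Actn2, Actn3, Mybpc2, Myl1 and Myh7. Their sum was 59.4 and 41.8 CPM in these libraries and 8.52 to 9.47 CPM in the other 4. Among all genes kept, 2.38% stood at least 2-fold above the other 4 libraries in both, and 6 of 37 members kept did so. At 4-fold it was 0.407% of all genes and 5 of the 37. The criterion includes ABT263 replicate 3, which served to choose the list, so nothing is read from these counts. Pygm, muscle glycogen phosphorylase, which releases glucose units from glycogen, stood at 6.37, 5.95 and 5.03 CPM under vehicle against 5.84, 33.6 and 25.6 CPM under ABT263. Casq1, calsequestrin, which stores calcium in the reticulum (chromosome 1, 172209894 to 172219868, minus strand), stood at 1.70, 2.04 and 2.37 CPM in the vehicle libraries and 1.41, 8.81 and 5.71 CPM in the ABT263 libraries. Both varied little among the vehicle libraries and ABT263 replicate 1. Actn2 and Actn3 are the alpha-actinins that cross-link thin filaments at the Z-disc. Actn2 stood at 0.224, 0.492 and 0.146 CPM in the vehicle libraries and 0.165, 4.86 and 2.08 CPM in the ABT263 libraries. Actn3, the fast-fibre form, stood at 0.384, 0.436 and 0.410 CPM in the vehicle libraries and 0.382, 2.68 and 3.04 CPM in the ABT263 libraries. In both genes ABT263 replicate 1 lay with the vehicle libraries.

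Thick filament genes of this set were Mybpc2, Myl1 and Myh7. Mybpc2, the fast-fibre myosin-binding protein, stood at 0.448, 0.315 and 0.614 CPM under vehicle against 0.393, 2.80 and 2.76 CPM under ABT263. Myl1, the essential light chain of fast fibres, stood at 0.0800, 0.130 and 0.322 CPM under vehicle against 0.300, 6.20 and 2.27 CPM under ABT263, and 23.4% of its windows occur in the pseudogene Mylf-ps. Myh7, the slow heavy chain of skeletal fibres and the heart, stood at 0, 0.111 and 0.0731 CPM under vehicle against 0.0413, 0.548 and 0.379 CPM under ABT263. Here the pair of high libraries was the same pair in which contractile smooth muscle genes were high. Of 20 smooth muscle genes, 16 stood at least 2-fold above the other 4 libraries in both. The part of smooth muscle in the levels of these 7 genes was not tested.

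The promoter of Casq1 is given for this set (chr1:172219896-172220145, minus strand, RefSeq, GRCm38.p6, same window and marks).
Casq1: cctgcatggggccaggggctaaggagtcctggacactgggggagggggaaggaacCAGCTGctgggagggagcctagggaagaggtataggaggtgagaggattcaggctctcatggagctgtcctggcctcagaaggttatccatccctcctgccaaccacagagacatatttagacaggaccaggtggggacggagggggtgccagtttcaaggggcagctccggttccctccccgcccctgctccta
It held a single marked match, a CAGCTG that began 195 bases before the RefSeq start, which differs from that of the GENCODE model placed above. In the 6 promoters matched for this set 3 held CAGCTG, 0 a CArG match and 0 a MEF2 match.

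The other 19 genes had no such pattern. Eno3, muscle enolase of glycolysis, stood at 10.4, 16.6 and 8.97 CPM under vehicle against 7.96, 8.22 and 9.19 CPM under ABT263, highest in vehicle replicate 2. Tcap (telethonin), which caps titin at the Z-disc, stood at 3.41, 14.3 and 3.32 CPM under vehicle against 5.84, 20.7 and 11.3 CPM under ABT263, high in vehicle replicate 2 as well as in ABT263 replicates 2 and 3. Tnni2, fast troponin I, stood at 1.90, 4.32 and 2.28 CPM in the vehicle libraries and 2.72, 1.05 and 3.94 CPM in the ABT263 libraries and was lowest in ABT263 replicate 2, where the fast troponins T and C were not. Mylpf, the fast regulatory light chain, stood at 1.38, 1.48 and 1.54 CPM in the vehicle libraries and 0.878, 1.76 and 3.39 CPM in the ABT263 libraries. Ttn (titin), the elastic spring of the sarcomere, stood at 0.704, 0.946 and 1.59 CPM in the vehicle libraries and 0.486, 1.26 and 2.92 CPM in the ABT263 libraries, and Neb (nebulin), a ruler of the thin filament, at 1.09, 0.315 and 0.731 CPM in the vehicle libraries and 0.310, 0.755 and 1.29 CPM in the ABT263 libraries. For Mylpf, Ttn and Neb the highest library was again ABT263 replicate 3, by less than 2-fold.

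Genes shared by slow fibres and the ventricle were low in this remainder, at no more than 1.41 CPM. Myl2, the ventricular and slow regulatory light chain, stood at 0.336, 0.204 and 0.146 CPM under vehicle against 0.145, 0.163 and 0.603 CPM under ABT263. Myl3, its essential partner, stood at 0.608, 0.213 and 0.351 CPM under vehicle against 0.0103, 0.104 and 0.449 CPM under ABT263. Tnnc1, slow and cardiac troponin C, stood at 0.848, 1.41 and 0.512 CPM in the vehicle libraries and 0.496, 0.725 and 0.575 CPM in the ABT263 libraries, with overlapping groups. Myh3, the embryonic heavy chain, had 24 and 6 reads in vehicle replicates 2 and 3 and 0 in the other 4 libraries. Tnni1 and Tnnt1 (slow troponins) stayed between 0.252 and 1.03 CPM, and Mb (myoglobin, an oxygen store) between 0.241 and 1.68 CPM. Ryr1, the calcium release channel of skeletal muscle, ranged from 0.453 to 2.19 CPM, and Myoz1, a fast-fibre Z-disc protein, from 0.528 to 1.96 CPM. Both were highest in ABT263 replicate 1. Cox6a2, a muscle subunit of cytochrome oxidase, stood at 2.80, 3.02 and 1.33 CPM under vehicle against 0.723, 0.577 and 1.81 CPM under ABT263.

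Skeletal and cardiac isoforms were compared within each library per kilobase of exons, a measure that library scaling does not affect. Of the level of 6 sarcomeric myosin heavy chains, fast skeletal forms (Myh1, Myh2 and Myh4) made up 73.4%, 65.4% and 71.5% with vehicle and 87.3%, 30.7% and 96.0% with ABT263. Few reads lay behind the low libraries: the family had 92 to 122 reads in vehicle libraries and in ABT263 replicate 1, 265 in ABT263 replicate 2 and 933 in ABT263 replicate 3. As a share of reads, fast forms were 28.3% in ABT263 replicate 2 (95% Wilson interval 23.2 to 34.0%) and 94.96% in ABT263 replicate 3 (93.4 to 96.2%). In the other 4 libraries they ranged from 63.1% in vehicle replicate 2 (54.3 to 71.2%) to 85.6% in ABT263 replicate 1 (77.9 to 90.9%). The intervals cover counting error within a library only, and the shares are a description with no test.

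**Figure D4:**
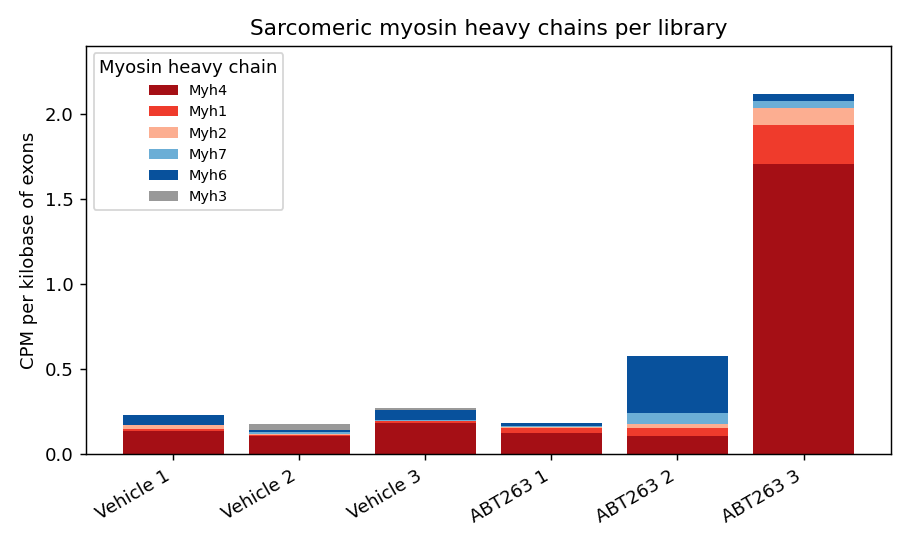
Level of 6 sarcomeric myosin heavy chains in each library, in CPM per kilobase of exons from 0, stacked by gene; each bar is 1 library. Myh4 reaches 1.71 CPM per kilobase in ABT263 replicate 3 and Myh6 0.337 in ABT263 replicate 2.

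For sarcomeric actin, too, the skeletal share was lowest in ABT263 replicate 2. Acta1 was 76.6%, 95.5% and 90.2% of the Acta1 and Actc1 level per kilobase with vehicle, and 72.4%, 26.2% and 96.4% with ABT263. Among regulatory light chains, the fast form Mylpf made up 74.4% to 86.6% of the level in 5 libraries and 5.40% in ABT263 replicate 2, where Myl7 stood at 28.98 CPM per kilobase. In troponin C, the fast form Tnnc2 held 89.2% of the level in ABT263 replicate 3 and 21.5% to 54.4% in the others. For troponin I the skeletal share was 81.1% in ABT263 replicate 3 and 43.3% to 65.9% in the others. For troponin T the share depended on the length used, since the Tnnt2 gene model holds long alternative exons: in ABT263 replicate 3 it was 76.7% by the union of exons and 43.7% by the longest coding transcript. By either length it was lowest in ABT263 replicate 2, at 17.95% and 5.39%. In 2 families the skeletal share was high in ABT263 replicate 2 as well. For myosin-binding protein C it was 91.9% and 93.5% in ABT263 replicates 2 and 3 and at most 67.2% in the other 4. For the essential light chains (Myl1 against Myl3 and Myl4) it depended on the length used. By the union of exons it was 75.9% in ABT263 replicate 2, 59.3% in ABT263 replicate 3 and 6.93% to 26.0% in the other 4. By the longest coding transcript it was 55.9%, 40.4% and 3.13% to 12.1%.

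The study's comparison of ABT263 with vehicle called no member by edgeR. Of 15222 genes, edgeR's quasi-likelihood F-test called 0 (0.0%), and the smallest adjusted p was 0.592. At an unadjusted p under 0.05, 7 of 37 members were higher with ABT263 (4.7% of all genes) and 0 lower (3.68%). Of 37 members tested, 29 had a positive log2 fold change (ABT263 over vehicle) and 8 a negative one. Over all genes tested, 50.1% were positive. The median of the members was 1.37, beside 0.00080 over all genes tested. This comparison contains the library used to choose the list. Without ABT263 replicate 3 the median was 0.29 and without ABT263 replicate 2 it was 0.81. Acta1 had a log2 fold change of 2.36 (SE 1.01), from 0.963 ± 0.208 CPM with vehicle and 4.96 ± 6.57 CPM with ABT263 (SD, n = 3 each), and 0.28 without ABT263 replicate 3. Myh4 went from 2.19 to -0.30 without that library, Pvalb from 2.06 to -0.31 and Atp2a1 from 1.85 to 0.10. Myh6 went from 1.63 to -0.49 without ABT263 replicate 2 and Actc1 from 3.33 to 1.49. Levels of the 2 groups did not overlap for 3 of 44 members (Myh1, Actc1 and Myl7), all higher with ABT263. Of these, 2 passed the filter, Myh1 and Actc1. Myh1 had 5, 3 and 5 reads with vehicle and 19, 19 and 103 with ABT263. It thus passed the filter only through the ABT263 libraries, where it was high. Nothing is read from its separation, nor from its place among the 7 members at an unadjusted p under 0.05. Among all genes kept 5.66% did not overlap and were higher with ABT263, and 6.31% were lower. DESeq2 called 153 genes (1.01% of all genes kept), and of the members Myl1 (adjusted p = 0.0172, log2 fold change 4.02). It gave no p-value for Acta1, Myh4 and Pvalb and no adjusted p for Myh2, Myl2 and Myl3. These members could therefore not be called by it, and such genes count in the 1.01%. limma-voom called 0 genes (0.0%).

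A fit on the other 5 libraries called no member by edgeR either. The list was chosen with earlier results of these data known, so this fit cannot be taken as independent of that choice. With ABT263 replicate 3 left out, the same edgeR test called 0 of 15521 (0.0%), and the smallest adjusted p was 0.782. At an unadjusted p under 0.05, 3 of 37 members were higher (3.87% of all genes) and 1 lower (2.29%). Those higher were Myl1 (log2 fold change 4.19, SE 1.30), Actc1 (3.75, SE 1.25) and Pygm (1.77, SE 0.68). The lower one was Cox6a2 (-1.87, SE 0.57), at 2.80, 3.02 and 1.33 CPM with vehicle against 0.723 and 0.577 CPM in ABT263 replicates 1 and 2. Cox6a2 shares exon sequence with Itgad, a leukocyte integrin on the other strand, so its counts are uncertain. Macrophage genes summed to 8823 CPM in ABT263 replicate 2 and to 17307 to 28110 CPM in the other 5 libraries, and their part in the Cox6a2 value was not tested. For Myl1 and Pygm the high library was ABT263 replicate 2 alone, with ABT263 replicate 1 inside the vehicle range. Without ABT263 replicate 2 as well, the log2 fold change was 0.76 for Myl1 and 0.016 for Pygm. DESeq2 called 250 genes (1.61%) on the same 5 libraries, Myl1 again the 1 member among them (adjusted p = 0.0430). There it gave no adjusted p for Myh1, Myh2, Pvalb, Myl2 and Myl3. The p-values of these tests set the difference between the groups against the spread between libraries, which may in part be technical.

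Other muscle genes were taken from lists by function, and edgeR called 0 genes of these lists in the comparison of the groups. Of 30 further sarcomere genes, 15 were highest in ABT263 replicate 3 and 12 in ABT263 replicate 2, with 20 positive and 2 negative fold changes among 22 kept (median 0.81). Their sum was 1060 and 1471 CPM in these libraries against 262 to 392 CPM in the other 4. The largest was Tpm2, a tropomyosin on the smooth muscle list too, at 137, 198 and 178 CPM under vehicle against 153, 904 and 539 CPM under ABT263. Myom1, a protein of the M-band, stood at 56.1, 72.3 and 97.01 CPM in the vehicle libraries and 40.3, 172 and 181 CPM in the ABT263 libraries, and Mylk4, a kinase related to that of myosin light chains, at 10.5, 5.44 and 23.2 CPM in the vehicle libraries and 8.52, 213 and 162 CPM in the ABT263 libraries. Of 24 excitation and contraction coupling genes, 14 were highest in ABT263 replicate 2 and 4 in ABT263 replicate 3 (13 positive and 3 negative, median 0.70). Cacna1s, the voltage sensor of skeletal muscle, stood at 0.208, 1.07 and 0.234 CPM in the vehicle libraries and 0.0517, 0.104 and 0.491 CPM in the ABT263 libraries, highest in vehicle replicate 2. Jph2, a junctional membrane protein, stood at 42.6, 39.3 and 54.6 CPM under vehicle against 38.7, 225 and 169 CPM under ABT263, with ABT263 replicates 2 and 3 both high.

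Regulators that start the skeletal muscle programme were at or near 0. Myog, Myf5 and Pax3 had 0 counts in all 6 libraries, which allows at most 0.048 CPM in any of them. Myod1, the master regulator of muscle lineage, was at most 0.0371 CPM, and Myf6, the regulator most abundant in mature fibres, at most 0.028 CPM. Pax7, the marker of satellite cells, was at most 0.117 CPM. These regulators belong to a wider list of 18 genes measured, of which some were well above 0 and 5 were highest in ABT263 replicate 3. Among those 5, Mef2c stood at 30.8, 28.9 and 46.1 CPM in the vehicle libraries and 31.9, 65.5 and 72.4 CPM in the ABT263 libraries. Mef2a stood between 102 and 152 CPM over all 6 libraries. Genes of the nerve-muscle contact went no single way (3 positive and 4 negative fold changes among 7 kept, median -0.012). Chrna1, a subunit of the muscle acetylcholine receptor, stood at 0.496, 0.659 and 0.600 CPM under vehicle against 0.434, 0.918 and 1.33 CPM under ABT263, and Chrnd and Chrng had 0 counts throughout. Muscle metabolism genes had 13 positive and 4 negative fold changes (median 0.75), and 10 of 21 were highest in ABT263 replicate 2. Of these, Cox8b, which is on the brown fat list too, reached 156 CPM there and stood at 0.21 to 0.384 CPM in the other 5 libraries.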

How the data were processed

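RNA-seq was done on 6 aortic arch plaque samples, 3 per group. Per the labels' protocols, RNA was column-extracted and 100 to 200 ng went into TruSeq v2 libraries, a kit that does not mark strand. The authors deposited 1 table of raw counts per gene symbol. Per the submitters' processing notes, the tools were featureCounts 1.4.6 with Subread, Bowtie2 2.2.6 and TopHat2 2.0.14, and the build mm10, with no role stated. Annotation and treatment of multiply mapped reads are not stated. Dropping shared reads lowers counts of close paralogs such as the myosin heavy chains.

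Groups came from sample titles, and replicate numbers only name samples in accession order. Counts were analysed in R 4.3.3 with edgeR 4.0.16. This used filterByExpr at its settings of 10 counts per library and 15 in all, and TMM. The quasi-likelihood F-test followed, with Benjamini-Hochberg over all genes and a threshold of 0.05. The edgeR steps were tested on simulated data that gave every gene the same spread. That does not show how they perform on libraries as uneven as these. The SE is the absolute log2 fold change over the square root of F. DESeq2 1.42.0 and limma 3.58.1 (voom) were run beside it. Positions, exon lengths and shared 50-base windows came from GENCODE M21 (GRCm38, which mm10 denotes), and promoters from RefSeq (35 of 44 members matched, the first entry of each). In 6 members more than 10% of windows were shared with another gene. Named were all 44 members. Those at 5 CPM or more in any library or in the cardiac, slow and developmental classes were to be given in full and others by range, but many of the others are given in full too. Of other lists, genes of high level in ABT263 replicate 3 were named, with defining markers chosen after their values were seen. The members, lists and tests were chosen with earlier results of these data known.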

Additional observations from a re-analysis of the deposited data

How the results depend on the processing

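The edgeR quasi-likelihood count of 0 called genes held with RLE size factors, with library totals alone, without a filter, with limma-voom and in each fit that left out 1 of the 6 libraries, with a smallest adjusted p of 0.111 to 1.0 over these fits. DESeq2 called 153 genes on 6 libraries and 250 on the 5 without ABT263 replicate 3. On those 5, fits that left out 1 more library called between 0 and 332 genes. The 332 came without ABT263 replicate 1, when ABT263 replicate 2 alone stood against vehicle and was assumed to vary as the vehicle libraries do. Of the members, Myl7 (adjusted p = 0.00880) and Pygm (0.0331) were then called. The median log2 fold change of the members ran from 0.29 to 1.84 when 1 library was left out, lowest without ABT263 replicate 3 and 0.81 without ABT263 replicate 2, and from 1.35 to 1.51 under the other settings. Signs changed for 8 of 37 members without ABT263 replicate 3, for 3 without ABT263 replicate 2, for 4 without vehicle replicate 2, for 2 without vehicle replicate 3 and for 1 with library totals alone. Members highest in ABT263 replicate 3 numbered 18 by TMM and by library totals and 19 by RLE. Those at least 2-fold higher there than in any other library rose in number from 13 to 21 when ABT263 replicate 2 was left out of the comparison, a choice made after seeing the data. The same count for ABT263 replicate 2 went from 7 to 13 without ABT263 replicate 3. The fast share of myosin heavy chain in ABT263 replicate 3 was 95.96% per kilobase of exons, 94.96% with no length correction and 95.08% by the longest coding transcript. Of 44 members 7 failed the filter. One of them, Myl7, had 1155 reads in ABT263 replicate 2, and Myot and Trdn rested on few reads in every library. No paired analysis was possible because the labels give the samples no shared replicate numbers.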

Other observations

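Genes kept were ranked by the ratio of ABT263 replicate 3 to the highest other library (0.1 CPM added to both). Clone and predicted-gene symbols were left out. Of the first 40, 9 were members, 1 (Mylk2) was on another muscle list and 30 were on none. Members made up 8 of the first 10, and 37 of the 15222 genes kept. Nothing is read from these counts of members, since this library served to choose the list. Those on no list included Apob, Prg4, Ly6k, Tnfsf8, Epha7, Pcdhgc5 and Mmp3. Prg4, which encodes the joint lubricant lubricin, stood at 61.2, 103 and 75.9 CPM under vehicle against 107, 31.1 and 501 CPM under ABT263. Mmp3, stromelysin, a matrix protease, stood at 28.4, 83.3 and 48.5 CPM under vehicle against 149, 69.9 and 420.3 CPM under ABT263. Apob, the protein of liver and gut lipoproteins, stood at 0.0960, 0.288 and 0.219 CPM under vehicle against 0.0207, 0.0296 and 1.94 CPM under ABT263. These genes and the fast skeletal genes were highest in the same library. Mylk2, the myosin light chain kinase of skeletal muscle, stood at 2.80, 2.49 and 2.02 CPM in the vehicle libraries and 1.91, 2.61 and 6.62 CPM in the ABT263 libraries.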
